A study of Mus musculus with 24 samples.

Results

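The furan response was examined in liver pieces that had lain in formalin for 3 weeks before they were embedded in paraffin, as the difference between 4 furan and 4 control libraries over all genes. These 8 samples were chosen by their labels from the 24 samples of the series. The animals were female B6C3F1 mice, 5 to 6 weeks old by their label. Furan animals 41, 42, 43 and 44 received 8 mg of furan per kg of body weight each day for 21 days by oral gavage in corn oil, and control animals 02, 03, 04 and 06 received the corn oil alone. Tissue was collected 4 h after the final dose. Each liver was cut into a frozen piece, a piece fixed for 18 h and a piece fixed for 3 weeks, so that the same animals recur in every kind of piece. RNA of the 3-week blocks came from 2 sections of 10 micrometres each, where the 18-h blocks gave 1 section, and the RNA integrity numbers of fixed samples lay between 1.3 and 2.4 per the labels. Poly(A) RNA was then selected and sequenced, although the series title names only fresh-frozen tissue. Levels below are CPM, counts relative to the effective library size after scaling by the trimmed mean of M values (TMM), and fold changes are fitted log2 values ± SE, furan over control. Sums over marker genes are instead CPM of the total counts, without TMM scaling. A gene is said to rise or fall only where its adjusted p (edgeR quasi-likelihood F test, Benjamini-Hochberg over all genes tested) was under 0.05.

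Furan is oxidised in hepatocytes, mainly by the cytochrome P450 enzyme CYP2E1, to a reactive dialdehyde that binds glutathione and protein. Electrophiles of this kind release the transcription factor NRF2 from its inhibitor KEAP1, and NRF2 then raises genes for glutathione synthesis, thioredoxin function and conjugation. Damage to DNA stabilises p53, which raises genes of cell cycle arrest, cell death and its own feedback. Long formalin fixation adds methylol groups to RNA and breaks it, and poly(A) selection then keeps mostly fragments near the 3′ end of a transcript.

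Total counts ran from 3666173 in control 02 and 3895208 in furan 43 to 11780691 in furan 44. The 10 hepatocyte markers summed to between 104640 and 122850 CPM in control and between 105870 and 121310 CPM in furan libraries. The control libraries were the less alike: the mean correlation of a library with the others of its group (Pearson's r over log2 CPM of genes) lay between 0.834 and 0.879 in controls and between 0.925 and 0.945 in furan livers. The share of genes with 0 counts among those that averaged at least 10 counts in the other 3 libraries of the group was 5.81%, 6.83%, 6.89% and 12.3% in controls 02, 03, 04 and 06, and 1.14%, 2.86%, 4.73% and 1.82% in furan 41, 42, 43 and 44. Both measures gave a two-sided exact permutation p of 0.0286, the smallest possible for 4 against 4 (adjusted p = 0.181 over 19 library measures). Each value was computed from the other libraries of its own group and was not recomputed on permutation. The 4 values of a group are therefore not independent, and this p is a description only. Cholangiocyte markers summed to 42.3 to 62.7 CPM in control and 64.7 to 83.3 CPM in furan livers (exact permutation p = 0.0286, adjusted p = 0.181). Whether these groups stay apart after TMM scaling was not tested. Skeletal muscle markers reached 413 CPM in control 03, 172 CPM in control 06 and 686 CPM in furan 42, and were at most 3.59 CPM in the other 5 libraries. The ranges of macrophage, sinusoidal endothelial, stellate, T and NK cell, B cell, neutrophil, erythroid, pancreatic and adipocyte markers overlapped between the groups. Of 8 neutrophil markers 4 (Mpo, Elane, Camp and Ngp) were at 0 in all 8 libraries. The 8 together summed to 0 to 14.7 CPM in control and 2.31 to 16.6 CPM in furan livers. What part these library differences have in the gene results was not tested. In such bulk samples, fewer cells of a type and less RNA per cell cannot be told apart.

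Of 12064 genes tested, 36 rose and 63 fell with furan (0.298% and 0.522% of those tested, 0.821% together). The count of 99 depended on every library: it was between 17 (without furan 44) and 41 when any library other than control 06 was left out, and 173 without control 06. In all 8 of these fits 17 genes passed. By fitted fold change the largest rises were those of Eda2r and Prc1, with 0 and 1 control counts, followed by the p53 targets Cdkn1a and Phlda3, the transcription factor gene Jun and the urinary protein gene Mup20. The largest falls were those of the clone-named gene B930025P03Rik, the protease inhibitor gene Serpina1e, Mettl20 and Pcp4l1. The risen genes had a median log2 fold change of 1.51, and 25 of the 36 changed at least 2-fold. The fallen genes had a median of -0.80, and 16 of the 63 changed at least 2-fold. The risen genes were also less abundant, with a median control level of 31.0 CPM against 348 CPM for the fallen and 18.8 CPM for all genes tested. The ranges of the groups did not overlap for 97 of the 99 genes, where this held for 8.81% of all genes tested. The exceptions were the proline dehydrogenase gene Prodh and the P450 gene Cyp2d13. Each of the 99 reached 5 CPM in its higher group, and 10174 tested genes did, of which the 99 were 0.973%. The median log2 fold change of all genes tested was 0.02.

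**Figure D1:**
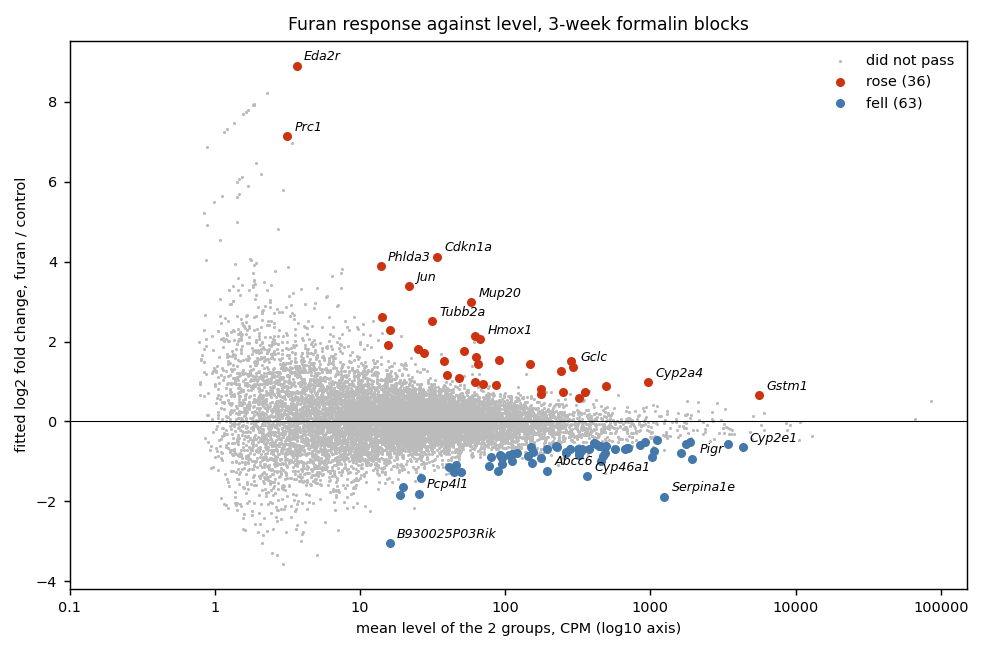
Fitted log2 fold change (furan over control) of each of the 12064 genes tested, against its mean level in CPM on a log10 axis. Red points are the 36 genes that rose and blue points the 63 that fell; grey points did not pass. Only 9 of the 99 lie under 20 CPM, where the grey points spread most, and the fitted folds of Eda2r and Prc1 rest on 0 and 1 control counts.

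Targets of p53 that act in arrest and feedback rose in 6 of 23 tested cases, with a median log2 fold change of 0.92 over the 23 (all genes tested: 0.02). Cdkn1a, which encodes the cyclin-dependent kinase inhibitor p21, lay at 2.15, 3.08, 4.11 and 4.87 CPM in controls 02, 03, 04 and 06, and at 65.2, 53.9, 69.8 and 67.1 CPM in furan 41, 42, 43 and 44. Every furan library stood far above every control, and the rise of 4.12 ± 0.30 had the smallest adjusted p of the comparison (7.88e-06). Ccng1, which encodes cyclin G1, lay at 26.9, 24.1, 19.6 and 24.0 CPM in controls and at 81.9, 69.5, 92.6 and 77.2 CPM in furan livers, a rise of 1.76 ± 0.21 (adjusted p = 0.000597). Both groups were tight for this gene and did not overlap. Phlda3, an inhibitor of AKT signalling, lay at 2.69, 1.81, 2.58 and 0.104 CPM in controls and at 17.7, 25.8, 31.4 and 29.2 CPM in furan livers (3.88 ± 0.66, adjusted p = 0.0157). Control 06 was by far the lowest, and all controls lay below the furan livers.

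Of the other risen members, Gdf15, a cytokine released under stress, moved from 0.851 to 5.65 CPM in controls to 16.5 to 36.5 CPM in furan livers (2.61 ± 0.55). Zmat3, a p53-induced RNA-binding protein gene, rose by 1.81 ± 0.40 with 5.32 to 17.3 CPM in controls and 29.3 to 45.6 CPM in furan livers. Trp53inp1, a cofactor of p53, rose by 1.44 ± 0.26. Mdm2, the ubiquitin ligase that returns p53 to low levels, did not pass: it lay at 41.1 to 65.6 CPM in controls and 78.4 to 109 CPM in furan livers, without overlap (0.67 ± 0.20, adjusted p = 0.154). The count of 6 depended on single libraries: it was 4 without control 03, 3 without control 02, control 04 or furan 41, 2 without furan 42, 43 or 44, and 8 without control 06. It was also 2 without both shallowest libraries, control 02 and furan 43. Cdkn1a and Ccng1 passed in each of these fits, and no member fell in any of them, in DESeq2 or in voom, or at an unadjusted p under 0.05.

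The start of Cdkn1a is shown because it was the only risen gene with a match to the core of a p53 element in the window from 250 bases before to 50 bases after a transcript start (RefSeq, GRCm38.p6; chr17:29090729-29091028, plus strand, 1 of 2 windows of the gene). The capitals mark the match to CATGNNNNNNCATG, which begins at position -48 relative to the start and reads the same pattern on both strands.
Cdkn1a promoter: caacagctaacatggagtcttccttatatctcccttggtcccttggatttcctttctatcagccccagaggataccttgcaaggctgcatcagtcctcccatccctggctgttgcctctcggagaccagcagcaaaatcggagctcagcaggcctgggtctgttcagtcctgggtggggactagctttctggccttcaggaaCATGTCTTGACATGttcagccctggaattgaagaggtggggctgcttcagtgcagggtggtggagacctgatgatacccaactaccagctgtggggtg
Of 36 risen and 63 fallen genes, 29 and 45 had an entry, and 1 of each held this core, where 0.833% of 27025 genes did. The match describes these letters only.

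In the list written for p53 targets of cell death and for death receptors, 2 of 12 rose and the median was 0.92. Membership is as written, and dependence of the members on p53 was not tested. Eda2r, a receptor of the tumour necrosis factor family, had 0 counts in all 4 controls, whose 33721077 counts allow up to 0.0890 CPM (3 counts over the group). It lay at 6.78, 4.25, 13.4 and 4.81 CPM in the furan livers, from 205 counts (adjusted p = 0.0333). Pooled over total counts without TMM scaling, these counts gave 6.34 CPM, which is 71.3-fold above that limit. This bound takes in the counting error of the controls only. The bound does not cover the 5.81% to 12.3% of well-counted genes that were at 0 in these control libraries, whose part in it was not tested. Eda2r passed in 1 of the 8 fits that left out 1 library. In other pieces of the same livers Eda2r was detected in controls, and its log2 rise was 4.19 ± 0.58 from 0.161 to 3.06 CPM in the 18-h blocks and 4.62 ± 0.50 from 0.432 to 10.9 CPM in the frozen pieces. Tnfrsf12a, the receptor of the cytokine TWEAK, rose by 2.302 ± 0.41 from 3.83 to 6.59 CPM in controls to 19.5 to 42.8 CPM in furan livers. Bax, which permeabilises mitochondria in apoptosis, stood at 0.89 ± 0.28 and did not pass (adjusted p = 0.186), although its groups, 16.9 to 31.9 and 35.1 to 51.8 CPM, did not overlap. The count was 3 without control 06, 0 without control 02, control 04, furan 41, furan 42 or furan 44, 1 without control 03 or furan 43, 0 without both shallowest libraries, and 0 with voom weights. This list therefore had no member that passed in every fit.

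**Figure D2:**
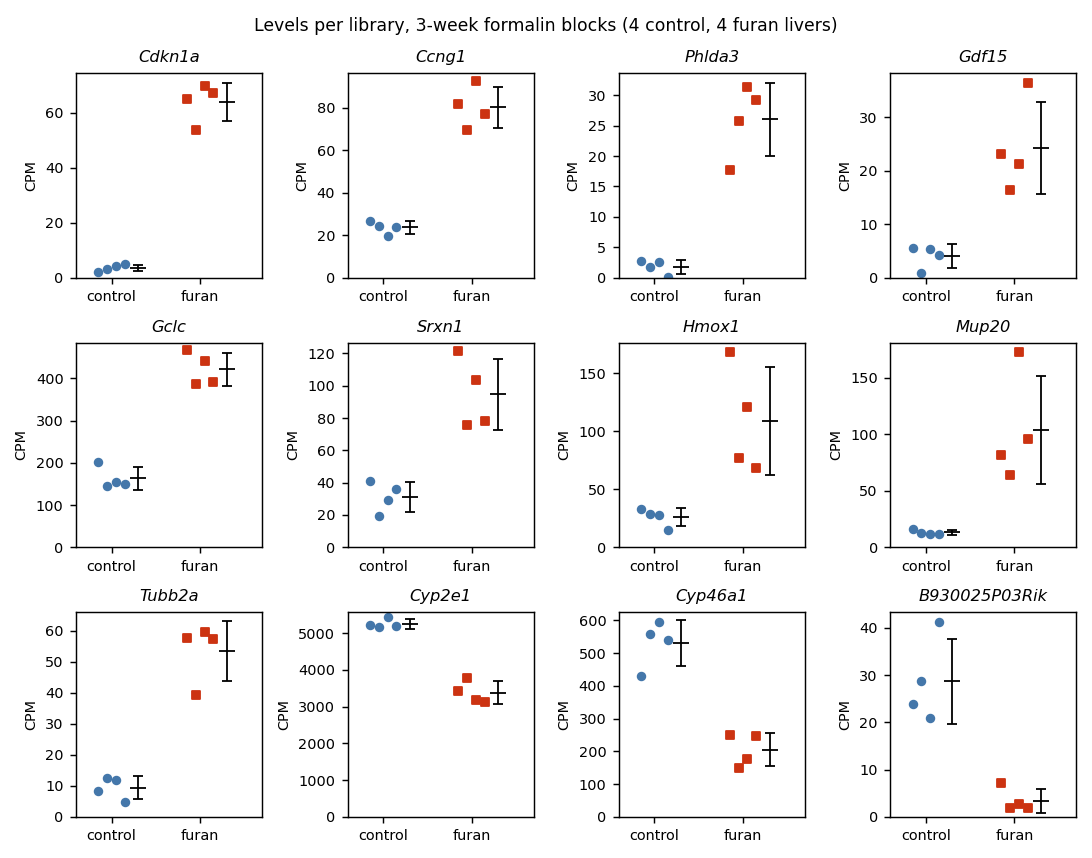
CPM of 12 genes in each of the 4 control (blue circles) and 4 furan (red squares) libraries, each panel on its own linear axis from 0. Black bars give the mean and SD (n = 4). The groups are apart in every panel: Cdkn1a lies between 2.15 and 4.87 CPM in control and between 53.9 and 69.8 CPM in furan livers, and Cyp2e1 lies at or above 5153 CPM in control and at or below 3786 CPM in furan livers.

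NRF2 targets and detoxification enzymes held the most rises of the lists: 8 of 33 rose, and the median was 0.50. Gclc, the catalytic subunit of the enzyme that limits glutathione synthesis, lay at 203, 144, 156 and 149 CPM in controls and at 468, 386, 441 and 392 CPM in furan livers (1.37 ± 0.14, adjusted p = 0.000273). The groups did not overlap, and the gap between them was wider than the range of either. Srxn1, which restores oxidised peroxiredoxins, lay at 40.9, 19.5, 29.0 and 35.9 CPM in controls and at 121, 75.4, 103 and 78.1 CPM in furan livers (1.60 ± 0.25, adjusted p = 0.00852). Hmox1, which degrades heme, lay at 33.1, 28.8, 27.4 and 15.1 CPM and at 168, 77.1, 121 and 67.8 CPM (2.06 ± 0.31, adjusted p = 0.00615). For both genes the groups were apart, and among the furan livers 41 was highest and 43 next, with 42 and 44 lowest.

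Ugdh, which makes the sugar donor for glucuronidation, rose by 1.45 ± 0.16 and was the steadiest of the 8 in controls, at 76.6 to 83.1 CPM. Ugt2b35, a glucuronosyltransferase gene with close paralogues that can share reads, rose by 1.26 ± 0.14. Osgin1, an oxidative stress response gene, rose by 1.53 ± 0.20, the thioredoxin reductase gene Txnrd1 by 0.81 ± 0.16 and the carboxylesterase gene Ces1g, again with close paralogues, by 0.60 ± 0.13. The quinone reductase gene Nqo1 (1.15 ± 0.36, adjusted p = 0.176) and the epoxide hydrolase gene Ephx1 (0.76 ± 0.19, adjusted p = 0.0785) did not pass. Nqo1 lay at 8.90 to 16.7 CPM in controls and 19.3 to 37.9 CPM in furan livers. The count of 8 was 6 or 9 without any single library, 4 without both shallowest libraries, and 16 in a model that shared 1 estimate of the spread with the other pieces. Gclc, Srxn1, Hmox1, Ugdh, Ugt2b35 and Osgin1 passed without each single library in turn.

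The starts of Srxn1 (chr2:152105274-152105573, plus strand) and Txnrd1 (chr10:82858956-82859255, plus strand, 1 of 3 windows) are shown because both members rose and hold the core of the antioxidant response element that NRF2 binds, TGACNNNGC, here on the reverse strand. The capitals mark that core, at position 28 in Srxn1 and -92 in Txnrd1, and in Srxn1 also the AP-1 letters TGAGTCA at -102 and -45.
Srxn1 promoter: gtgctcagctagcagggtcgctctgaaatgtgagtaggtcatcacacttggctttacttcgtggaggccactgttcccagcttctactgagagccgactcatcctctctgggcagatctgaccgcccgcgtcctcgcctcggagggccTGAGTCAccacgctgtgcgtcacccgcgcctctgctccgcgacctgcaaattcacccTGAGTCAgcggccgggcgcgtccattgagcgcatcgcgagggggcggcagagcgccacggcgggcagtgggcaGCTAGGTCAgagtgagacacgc
Txnrd1 promoter: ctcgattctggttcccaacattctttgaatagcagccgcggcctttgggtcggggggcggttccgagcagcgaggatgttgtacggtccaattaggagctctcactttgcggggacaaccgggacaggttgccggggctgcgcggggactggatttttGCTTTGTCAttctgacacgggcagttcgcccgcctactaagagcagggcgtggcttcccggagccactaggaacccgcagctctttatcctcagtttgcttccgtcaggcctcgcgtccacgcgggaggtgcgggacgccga
The antioxidant core was found in 5 of 29 risen genes with an entry (Cdkn1a, Eda2r, Srxn1, Txnrd1 and Ugdh), in 8 of 45 fallen genes, and in 13.99% of 27025 genes. The AP-1 letters were found in 4 of 29, 6 of 45 and 5.95%.

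Of 20 glutathione S-transferase genes tested 1, Gstm1, rose, with a list median of -0.03. Gstm1 was the most abundant gene to rise, at 3657 to 5068 CPM in controls and 5995 to 7718 CPM in furan livers (0.66 ± 0.12, adjusted p = 0.0191), and it has near-identical copies. Gsta1 was near its floor in controls: 0.269, 2.55, 0 and 0 CPM against 4.55, 3.15, 3.79 and 5.15 CPM in furan livers (2.52 ± 1.56, adjusted p = 0.640). The groups did not overlap, but control 03 stood close to the lowest furan library.

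Among 18 immediate early and AP-1 genes 1 rose, and the list had the highest median of all lists, 1.03. Jun, a subunit of the factor AP-1, lay at 1.61, 9.46, 3.54 and 0.207 CPM in controls and at 55.6, 32.8, 22.0 and 48.6 CPM in furan livers (3.38 ± 0.69, adjusted p = 0.0349). The controls differed widely among themselves, and all lay below the furan livers. Atf3, a stress-induced factor, lay at 0.538, 0, 3.44 and 0 CPM in controls and 14.4, 14.1, 11.4 and 14.9 CPM in furan livers, and did not pass (3.72 ± 1.15, adjusted p = 0.176). Egr1 did not pass either (1.68 ± 0.40, adjusted p = 0.0662). Other tools drew the line elsewhere: DESeq2 called Jun, Jund, Atf3, Egr1 and Mafk, and voom called Jund and Egr1 but not Jun. Jun passed in 2 of the 8 fits that left out 1 library. Dusp8, a phosphatase of stress kinases, was at 0, 0, 0.670 and 10.6 CPM in controls and 10.1, 10.01, 5.31 and 3.29 CPM in furan livers, so that control 06 exceeded every furan library (1.33 ± 1.32, adjusted p = 0.835). Dusp6, the phosphatase that turns off ERK kinases, rose by 1.54 ± 0.24, from 33.1 to 68.8 CPM in controls to 111 to 178 CPM in furan livers. Rcan1, an inhibitor of calcineurin, rose by 1.50 ± 0.33.

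Mup20, the major urinary protein also called darcin, lay at 16.1, 12.3, 12.1 and 12.1 CPM in controls and at 82.0, 63.5, 173 and 96.1 CPM in furan livers (2.98 ± 0.30, adjusted p = 0.000273). It was the only one of 10 tested members of its family to rise, the family's median was -0.07, and reads can be split among its near-identical copies. Tubb2a, a beta tubulin gene, rose by 2.51 ± 0.33, from 8.34, 12.5, 11.9 and 4.66 CPM to 57.6, 39.2, 59.7 and 57.3 CPM, and was the only one of 19 tubulin and cytoskeleton genes to pass (list median 0.20). Among 22 cell cycle genes (median 0.55) only Prc1, which bundles the microtubules of the mitotic spindle, passed in edgeR. DESeq2 also called Ccne1, voom called 0 of the list, and Prc1 passed in 1 of the 8 fits that left out 1 library. It had 1 count in the controls and 229 in the furan livers, a ratio of 239 with an exact 95% counting interval of 42.4 to 9474, and an adjusted p of 0.0433. The interval does not cover the missing genes of the control libraries, whose part in it was not tested. In the 18-h blocks Prc1 stood at 1.39 ± 0.45, from 0.833 to 2.23 CPM, and did not pass (adjusted p = 0.0782). In the frozen pieces it rose by 1.39 ± 0.25, from 1.04 to 2.74 CPM. Ccnd1, which encodes cyclin D1, did not pass (0.28 ± 0.20, adjusted p = 0.694). The other large rises were Fbf1 (2.14 ± 0.42), the extracellular protease gene Adamts1 (1.92 ± 0.41) and the ubiquitin ligase gene Rnf19a (1.72 ± 0.34).

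Cyp2e1, the furan-oxidising enzyme named above, lay at 5207, 5153, 5445 and 5180 CPM in controls and at 3431, 3786, 3165 and 3111 CPM in furan livers, a fall of 35.7% (-0.64 ± 0.09, adjusted p = 0.00298). The controls were close together, and every furan liver lay below them. Glul, glutamine synthetase of the cells at the central vein, fell by 0.45 on the log2 scale (SE 0.10, adjusted p = 0.0406), from 1183 to 1336 CPM in controls to 908 to 988 CPM in furan livers. These were the 2 of 20 pericentral genes that fell, and the median was -0.40. Their count was 1 without any single library other than control 06 (then 3), and 0 without both shallowest libraries. DESeq2 called 6 falls and voom with library weights 5. Of 18 periportal genes 0 passed in edgeR (median -0.16, 7 at an unadjusted p under 0.05), where DESeq2 called 3 and voom 1.

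Of 22 urea cycle enzymes and enzymes that break down amino acids, 1 rose and 2 fell in edgeR, with a median of -0.22. At an unadjusted p under 0.05, 3 were higher and 10 lower. DESeq2 called 1 rise and 7 falls, and voom 1 rise and 3 falls. Hpd and Prodh, which degrade tyrosine and proline, fell by 0.80 (SE 0.15) and 0.93 (SE 0.20) on the log2 scale, and Bhmt, which methylates homocysteine, rose by 0.90 ± 0.17. Prodh was one of the genes whose groups overlapped, with 150 CPM in control 04 and 163 CPM in furan 43. Outside the lists, Agxt, which detoxifies glyoxylate, fell by 0.78 on the log2 scale (SE 0.12). Dgat2, which makes triglyceride, fell by 0.66 (SE 0.13) as the 1 called of 19 lipogenesis genes (median -0.23). Acaa1b, a peroxisomal thiolase, fell by 0.90 (SE 0.18) as the 1 called of 24 genes of fatty acid oxidation (median -0.12). The glucagon receptor gene Gcgr, the glucokinase regulator gene Gckr and the pyruvate carboxylase gene Pcx fell by 0.69, 0.70 and 0.73 on the log2 scale. Of 36 xenobiotic P450 genes 1, Cyp2a4, rose (0.98 ± 0.16), with a list median of -0.14 and a near-identical neighbour that can share its reads.

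Cyp46a1, which hydroxylates cholesterol, lay at 430, 558, 594 and 541 CPM in controls and 248, 150, 177 and 246 CPM in furan livers (-1.37 ± 0.17, adjusted p = 0.00117). Abcc6, a transporter of the ABC family, lay at 272, 259, 298 and 260 CPM in controls and 103, 130, 102 and 130 CPM in furan livers (-1.23 ± 0.14, adjusted p = 0.000569). Pigr, the receptor that carries immunoglobulin A across epithelia, lay at 2316, 2412, 3035 and 2457 CPM and at 1386, 1527, 1487 and 945 CPM (-0.94 ± 0.14, adjusted p = 0.00692). None of these 3 genes overlapped between groups, and each passed without every single library in turn. B930025P03Rik had the largest fall, from 23.9, 28.7, 20.9 and 41.3 CPM to 7.20, 1.92, 2.78 and 1.77 CPM (-3.05 ± 0.51, adjusted p = 0.0141). Serpina1e, one of several close copies of the alpha-1 antitrypsin gene, spread from 861 to 3302 CPM in controls and from 209 to 860 CPM in furan livers (-1.88 ± 0.40, adjusted p = 0.0415), so its groups all but touched. Pcp4l1 fell by 1.81 on the log2 scale, with an SE of 0.38.

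The other large falls were Mettl20 (-1.84), the protein-deglycating kinase gene Fn3k (-1.63), Inca1 (-1.41), the adrenergic receptor gene Adrb3 (-1.27), Notum, whose product removes the lipid from Wnt proteins (-1.26), Apol9b (-1.24), the transporter gene Slc12a9 (-1.13), 5830473C10Rik (-1.13), Pwwp2a (-1.10) and Phyhd1 (-1.06). Several are uncertain because the library kit did not keep the strand or a neighbour overlaps: in a later build (GENCODE M21), 24.9% of the exonic bases of Adrb3, 38.1% of Notum and 47.0% of Phyhd1 lie under another gene. The same holds for Tomm40l, which passed without every single library (-0.98 ± 0.15), since 64.3% of its exonic bases lie under Nr1i3 on the opposite strand. Rad51b, of homologous recombination, did not pass although its groups, 15.6 to 29.4 and 3.71 to 10.7 CPM, were apart (-1.54 ± 0.43, adjusted p = 0.128).

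Of the 29 lists, 16 had no called member in edgeR: 69 of their 320 different genes had an unadjusted p under 0.05, DESeq2 called 23 and voom 8. Over all genes, 1318 of 12064 (10.9%) had an unadjusted p under 0.05, DESeq2 called 371 of 13042 and voom 174 of 12064. Chaperones of the heat shock response (20 genes, median 0.24) included Hsp90aa1 at 4.84 to 11.7 CPM in controls and 18.96 to 23.5 CPM in furan livers (1.62 ± 0.43, adjusted p = 0.105). The medians of the other lists without a call were 0.12 for ER stress, 0.18 for cholesterol, 0.35 for extracellular matrix, 0.60 for chemokines and NF-kB targets, 0.48 for oncofetal genes, -0.03 for metallothioneins and iron handling, -0.04 for DNA repair, -0.26 for bile acids, -0.19 for secreted proteins, 0.01 for the acute phase, -0.10 for the clock, -0.00 for interferon-stimulated genes and -0.02 for ribosomal proteins. The 17 reference genes had a median of 0.06, and albumin (Alb) stood at 0.05 ± 0.07 (adjusted p = 0.898). Of 66 tested markers of hepatocytes and other cell types 0 passed in edgeR, 6 had an unadjusted p under 0.05, and DESeq2 and voom called 2 each.

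**Figure D3:**
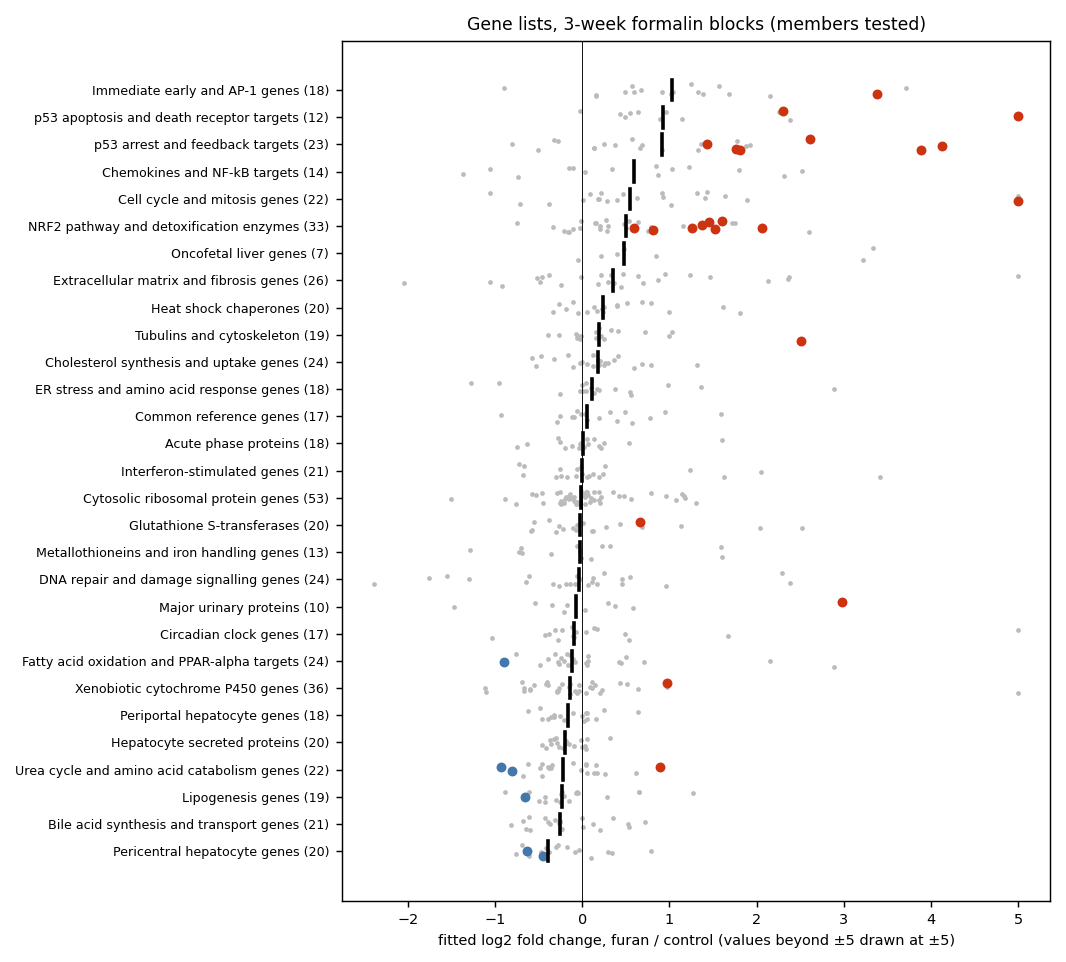
Fitted log2 fold change of each tested member of the 29 gene lists, with lists ordered by their median (black bar) and the number tested in brackets. Red and blue points are members that rose or fell and grey points did not pass; values beyond 5 are drawn at 5. Medians run from -0.40 in pericentral genes to 1.03 in immediate early and AP-1 genes, and the p53 and NRF2 lists hold most red points.

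The same animals gave 2 more kinds of piece, and the called genes went the same way there. The 18-h comparison held the same 8 animals, and the frozen one 3 controls (02, 04 and 06) and 3 furan animals (41, 43 and 44). Of the 36 risen genes, 36 had a positive fold change in the 18-h blocks and 36 in the frozen pieces, and 34 (94.4%) rose in each. Of the 63 fallen genes, all had a negative fold change in both, 61 (96.8%) fell in the 18-h blocks and 52 (82.5%) in the frozen pieces. By comparison, 3.92% of all genes tested rose and 4.47% fell in the 18-h blocks (8.39% together), and 8.21% rose and 7.47% fell in the frozen pieces (15.7% together). Pwwp2a was the 1 gene of the 99 that passed in neither. These pieces share their livers and doses, so this is no repeat in other animals. Cdkn1a rose by 4.31 ± 0.14 in the 18-h blocks and 4.97 ± 0.10 in the frozen pieces, Gclc by 1.00 ± 0.14 and 0.81 ± 0.14, Mup20 by 2.23 ± 0.29 and 2.70 ± 0.40. Cyp2e1 stood at -0.62 ± 0.08 and -0.97 ± 0.11 there, and Abcc6 at -1.03 ± 0.09 and -0.77 ± 0.08.

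In the other direction the overlap was a small share. Of the 1132 genes that rose in frozen pieces, 1009 were tested in the 3-week blocks, 855 of these (84.7%) had a positive fold change and 34 (3.00% of the 1132) rose. Of the 1030 that fell, 988 were tested, 801 (81.1%) had a negative fold change and 52 (5.05%) fell. Of the 503 risen and 574 fallen genes of the 18-h blocks, 34 (6.76%) and 61 (10.6%) passed in the 3-week blocks. Over the genes that rose in frozen pieces and were tested, the median log2 fold change was 0.48 in the 3-week blocks and 0.46 in the frozen pieces, and over those that fell it was -0.37 and -0.45. Over the genes called in the 3-week blocks the risen had medians of 1.51, 1.12 and 1.13 in the 3-week, 18-h and frozen pieces, and the fallen -0.80, -0.58 and -0.55. These genes were selected by their 3-week values, so this is a description and no test.

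**Figure D4:**
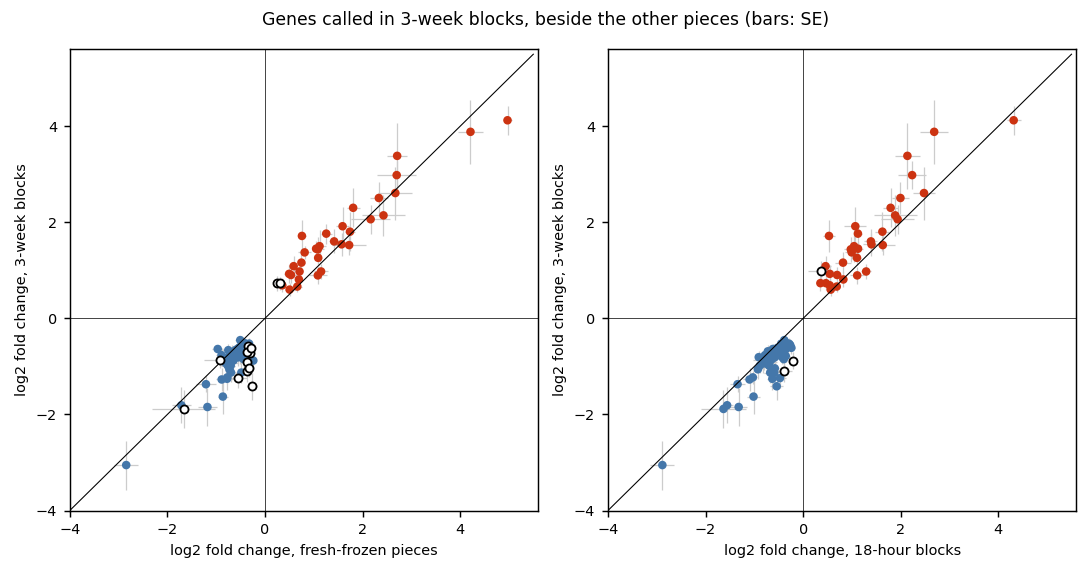
Fitted log2 fold change in the 3-week blocks (vertical) against that in the frozen pieces (left) and the 18-h blocks (right) for 97 of the 99 genes called in the 3-week blocks, with SE bars and the line of equal change. Red genes rose and blue fell in both, and white circles mark genes that did not pass in the other piece; Eda2r and Prc1, with 0 and 1 control counts, are not drawn. No gene lies in a quadrant of opposite sign.

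The smaller number of calls went with a wider spread and with fewer counts. Total counts ran from 3666173 to 11780691 in the 3-week blocks, 16269854 to 22494012 in the 18-h blocks and 33101755 to 58048387 in the frozen pieces. At the same CPM a gene thus had fewer counts in the 3-week blocks. The parts of depth and of fixation in the spread were not tested. The common dispersion was 0.336 in the 3-week blocks against 0.0284 in the 18-h blocks and 0.0150 in the frozen pieces, and the median SE of a log2 fold change was 0.401, 0.152 and 0.111. The gap closed with the level of the gene. Between 1 and 5 CPM the median SE was 1.42 in the 3-week blocks and 0.325 in the 18-h blocks, and 2 of 2272 genes were called. Between 100 and 1000 CPM it was 0.155 and 0.0842, and 48 of 1328 (3.61%) were called, 11 risen and 37 fallen. Above 1000 CPM it was 0.108 and 0.0814, and 11 of 106 (10.4%) were called, 1 risen and 10 fallen.

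**Figure D5:**
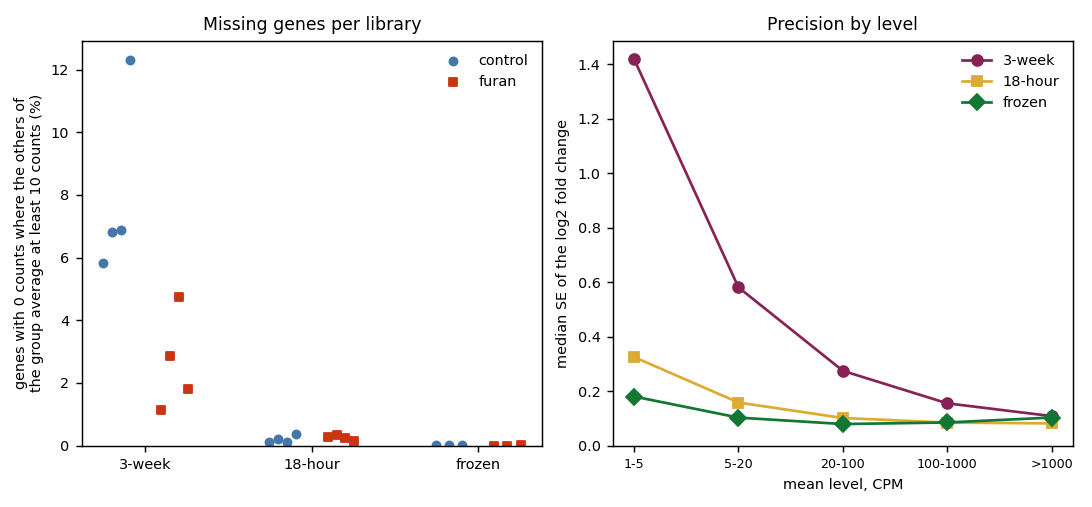
Left, the share of genes with 0 counts in a library among genes that average at least 10 counts in the other libraries of its group, per library, for 3-week, 18-h and frozen pieces of control (blue circles) and furan (red squares) livers. Right, the median SE of the log2 fold change by mean level. The kinds of piece also differed in total counts. The 3-week controls lie highest on the left, at 5.81% to 12.3%, and the 3-week line falls from 1.42 to 0.108 on the right.

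No gene's furan response was called different between the 3-week blocks and the other pieces. In the interaction of treatment and piece (edgeR), 0 of 13156 genes passed against the frozen pieces, with 590 (4.48%) at an unadjusted p under 0.05, and 0 of 13282 against the 18-h blocks, with 891 (6.71%). The called share was therefore 0.0% in both, and voom also called 0 in each, with 1125 and 1065 at an unadjusted p under 0.05. Not passing does not show that the responses were alike. Against the frozen pieces, the fitted interaction was 0.35 on the log2 scale for Cyp2e1 (edgeR interaction, adjusted p = 0.912) and -0.82 for Cdkn1a (adjusted p = 0.994). Neither difference passed.

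Several of the interactions with the smallest p against the 18-h blocks belonged to genes at or near 0 in the 3-week controls. Smpd3, Gm14057 and Ccne1 had 0 counts in all 4 controls and lay at 2.33 to 5.82, 2.19 to 7.08 and 2.44 to 4.30 CPM in furan livers, and their fitted fold changes in the 18-h blocks were -0.06 ± 0.35, 0.06 ± 0.31 and 0.44 ± 0.32. In the frozen pieces Smpd3 rose by 1.61 ± 0.22 (adjusted p = 0.00430), while Gm14057 (-0.22 ± 0.27) and Ccne1 (0.33 ± 0.40) did not pass. Otub2 had 1 control count. The adjusted p for the interaction was 0.0650 for each of these 4 genes. In the 3-week fit Smpd3, Gm14057 and Ccne1 did not pass (adjusted p = 0.105, 0.109 and 0.121). Against the frozen pieces, Gbp5, Otub2, Specc1 and Prc1 had 1 control count each and adjusted p = 0.560 for the interaction. Among all 12064 genes, 12 were at 0 in all 4 controls and above 0 in all 4 furan libraries, and 0 were the other way round. These 12, Eda2r among them, passed the filter on low counts through their furan libraries alone, so their number depends on that filter. Wfikkn1 and 1110020A21Rik had the same pattern but were not tested in the 3-week fit. The higher share of missing genes in the control libraries, given above, comes from the same counts as this pattern and is no separate evidence. Its part in the pattern was not tested.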

How the data were processed

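The authors deposited 1 table of raw counts per gene for 24015 gene symbols. Per the submitters' processing notes, reads were handled with CASAVA 1.8.2 and STAR 2.3.0 on mouse build mm9 and counted with featureCounts 1.4.4. The library kit kept no strand. Columns were matched to samples by preservation and animal number, and 2 of 24 columns matched no label and were not used. Replicates are separate animals.

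Counts were filtered with filterByExpr, scaled with TMM and tested with edgeR 4.0.16 (glmQLFit, glmQLFTest; R 4.3.3) on the 4 furan and 4 control libraries, and p-values were adjusted (Benjamini-Hochberg) over all genes tested. The difference between kinds of piece was an interaction over 2 kinds, with the same dispersion per gene for both kinds. Library measures were tested by exact permutation, two-sided (scipy 1.17.1). The scripts were tested on simulated counts. Total counts of 3666173 to 11780691 set the counting error, and intervals and floors cover that error only, as the reads carried no molecular identifiers. Promoter sequence came from RefSeq (GRCm38.p6) and exon overlap from GENCODE M21, both later builds than the counts.

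The members, gene lists and tests were chosen with earlier results of these data known. Named genes were the 15 largest rises and 15 largest falls with adjusted p under 0.05 and at least 5 CPM in the higher group, a fixed set of genes, at most 4 members per list, those of smallest p, and up to 6 genes with the smallest p of each interaction. Other called genes were named after their values were seen. Alternatives were DESeq2 1.42.0, voom with library weights (limma 3.58.1), other scalings and filters, thinning, 1 model of all 6 groups, the animal as a block, and each library left out.

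Same-numbered samples come from the same animal per the labels. After group means were removed, a 3-week library correlated with its frozen partner at r from 0.0317 to 0.108 (highest for its own partner in 6 of 6) and with its 18-h partner at r from -0.0109 to 0.0884 (5 of 8). Duplicate libraries were not found within a group, where chi-square over its degrees of freedom was at least 15.2.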

Additional observations from a re-analysis of the deposited data

Results flagged for a closer look

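In 11 of 100 groups of 4 libraries checked, 1 library stood far from the other 3 by Dixon's test at the 95% level. Chance flags about 1 in 20 groups where values are normal and groups independent. These groups share the same libraries and include genes named by their fold changes, so 11 of 100 is a description only. Among rises, Mup20 was at 16.1 CPM in control 02 (the others 12.1 to 12.3), Tubb2a at 39.2 CPM in furan 42 (57.3 to 59.7), Rnf19a at 32.9 CPM in furan 42 (44.3 to 45.5), Tnfrsf12a at 42.8 CPM in furan 41 (19.5 to 23.3) and Prc1 at 0.106 CPM, 1 count, in control 03 (the others 0). Among falls, Fn3k was at 14.4 CPM in furan 43 (7.68 to 8.68) and Pwwp2a at 56.1 CPM in control 03 (63.3 to 64.3). In each of these 7 genes the far library kept its group apart from the other group. Among genes that did not pass, Gsta1 was at 2.55 CPM in control 03 (0 to 0.269), Atf3 at 3.44 CPM in control 04 (0 to 0.538) and Dusp8 at 10.6 CPM in control 06 (0 to 0.670), and these high controls lie toward the furan levels. The total of control 02, 3666173 counts, was far below the other controls (9708205 to 10481659).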

How the results depend on the processing

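The number of genes called moved more than their direction. The count of 99 was 118 with RLE scaling, 112 with a minimum of 5 CPM, 139 with robust dispersions, 121 after thinning and 105 without Rn45s. It was 194 without a filter on low counts, 174 with voom and library weights (46 risen, 128 fallen, 89 shared with the 99), 371 with DESeq2 (142 risen, 229 fallen) and 2030 in 1 model of all 6 groups (1037 risen, 993 fallen), which by construction takes its spread from the other pieces too. Under voom the median of all genes was 0.11 in place of 0.02. Leaving out single libraries gave from 17 to 173: 17 without furan 44, 25 without furan 42, 30 without furan 41, 31 without control 04, 34 without control 02, 41 without control 03 or furan 43, and 173 without control 06, which had the lowest voom weight (0.193). Leaving out both shallowest libraries (control 02 and furan 43), an alternative chosen after seeing the data, left 12, of which 11 were among the 99. The cause of these shifts was not tested. None of the 99 changed direction in any of these settings, and 84 passed in all 9 settings that kept every library. Leaving out each library in turn kept 17 genes throughout: Cdkn1a, Ccng1, Mup20, Tubb2a, Gclc, Srxn1, Hmox1, Ugdh, Ugt2b35, Osgin1, Dusp6, Cyp2e1, Cyp46a1, Abcc6, Pigr, Agxt and Tomm40l.

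The interaction counts of 0 stayed at 0 with the animal as a block (741 genes at an unadjusted p under 0.05 against frozen pieces, 818 against 18-h blocks), with voom and after thinning. Without single 3-week libraries they ran from 0 to 5 against the frozen pieces (5 without control 02) and from 0 to 37 against the 18-h blocks (37 without control 02, 10 without control 03, 8 without control 06 and 1, Nthl1, without furan 43). Between 1 and 5 CPM a log2 fold change had a median SE of 1.42.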

Other observations

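The genes below passed and were named after their values were seen; they form no tested group. Ces1g rose by 0.60 ± 0.13, while its relatives Ces1e, Ces1f and Ces3a fell by 0.98 (SE 0.19), 0.70 (SE 0.14) and 0.73 (SE 0.13) on the log2 scale. The Ces1 genes are close copies of each other, so reads can be split among them. Of 20 hepatocyte secreted proteins 0 passed in edgeR (1 higher and 8 lower at an unadjusted p under 0.05), where DESeq2 called 4 and voom 3. Of 18 acute phase proteins 0 passed in edgeR (2 higher and 2 lower at an unadjusted p under 0.05), where DESeq2 called 1 and voom 0. The complement inhibitor gene Serping1 fell by 0.59 (SE 0.11), Itih1 by 0.56 (SE 0.12), fetuin B (Fetub) by 0.70 (SE 0.14), the regulator of plasma triglyceride Apoa5 by 0.56 (SE 0.12) and hepatic lipase (Lipc) by 0.79 (SE 0.16). The neonatal Fc receptor gene Fcgrt, which protects albumin and immunoglobulin G from breakdown, fell by 0.77 (SE 0.14), and the asialoglycoprotein receptor gene Asgr2 by 0.62 (SE 0.14).

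Acsl4, which activates polyunsaturated fatty acids, rose by 0.90 ± 0.18, with 50.6 to 72.1 CPM in controls and 104 to 135 CPM in furan livers. The chromatin remodeller gene Chd1 rose by 1.09 ± 0.22, the kinase gene Nek6 by 0.93 ± 0.19, the actin-binding protein gene Cald1 by 0.73 ± 0.16 and the ER protein gene Serp1 by 0.69 ± 0.15. Each of these 5 genes also rose in the 18-h blocks and in the frozen pieces, except Cald1 in the frozen pieces (0.26 ± 0.09).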
